A study of Homo sapiens with 12 samples.

Results

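The knockdown of MAPK14 was examined in 6 of the 12 bulk RNA-seq libraries analysed from the series. Members were taken by column label, as the 3 libraries of cells given an siRNA against MAPK14 (siMAPK14) and the 3 libraries of the control siRNA deposited beside them (siControl_MAPK14_set, called the control below). All 6 came from MIO-M1, a human cell line of Müller glia with a wild-type genotype per the labels, labelled day 3 of siRNA treatment, and all 6 carry the same batch label. The other 6 libraries are of a MAPK8 and MAPK9 knockdown with its own control and were used only for library shares. The stated aim was to find changes in signalling downstream of the kinase. The table held 17598 genes, of which 13183 passed the filter on low counts and were tested. The cells are 1 line, the control is 1 siRNA condition, and the siRNA sequences were not analysed here. Whether the libraries sharing a label were grown apart is not stated, so the p-values speak of library-to-library spread, which may be technical.

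MAPK14 encodes p38-alpha, a kinase of the stress-activated branch of the MAP kinase family. Upstream kinases (MAP3Ks, then MAP2K3, MAP2K4 and MAP2K6) switch it on by phosphorylation. Active p38 phosphorylates further kinases such as MAPKAPK2, as well as transcription factors, and dual-specificity phosphatases switch it off. Müller glia span the retina, recycle neurotransmitters, and respond to injury with stress signalling and, in fish, with the production of new neurons.

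The siMAPK14 libraries held 14516406 to 19463837 counts and the control libraries 31040067 to 31362585. The mitochondrial genome's 13 messenger genes (MT- genes) took 39.4% ± 6.6 of the counts in siMAPK14 and 1.62% ± 0.0651 in the control (SD, n = 3 each). The 3 siMAPK14 libraries were at 41.0%, 45.0% and 32.1%, and the control libraries lay between 1.56% and 1.69%. In the MAPK8 and MAPK9 experiment the same share was 8.93% to 36.9% in the knockdown and 1.92% to 2.03% in its control. Levels below are CPM, a gene's counts relative to library size after TMM scaling, a method that sets the bulk of genes equal between libraries. Across genes, the correlation of log levels was 0.937 to 0.948 among the siMAPK14 libraries and 0.995 to 0.996 among the control libraries, so the knockdown libraries varied more.

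Fold changes ran with transcript length. Nuclear genes were put in 5 equal bins by length. In the bin with the shortest transcripts (42 to 1512 bases of effective length), 67.9% were higher and 3.51% lower in siMAPK14. In the bin with the longest transcripts (5102 to 34300 bases), 7.29% were higher and 62.9% lower. The median log2 fold change over the 5 bins, short to long, was 0.72, 0.24, -0.06, -0.33 and -0.58. Values called length-adjusted below come from a fit in which this trend was removed inside each library; the part of the trend and of the mitochondrial share in any single result was not tested.

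**Figure D1:**
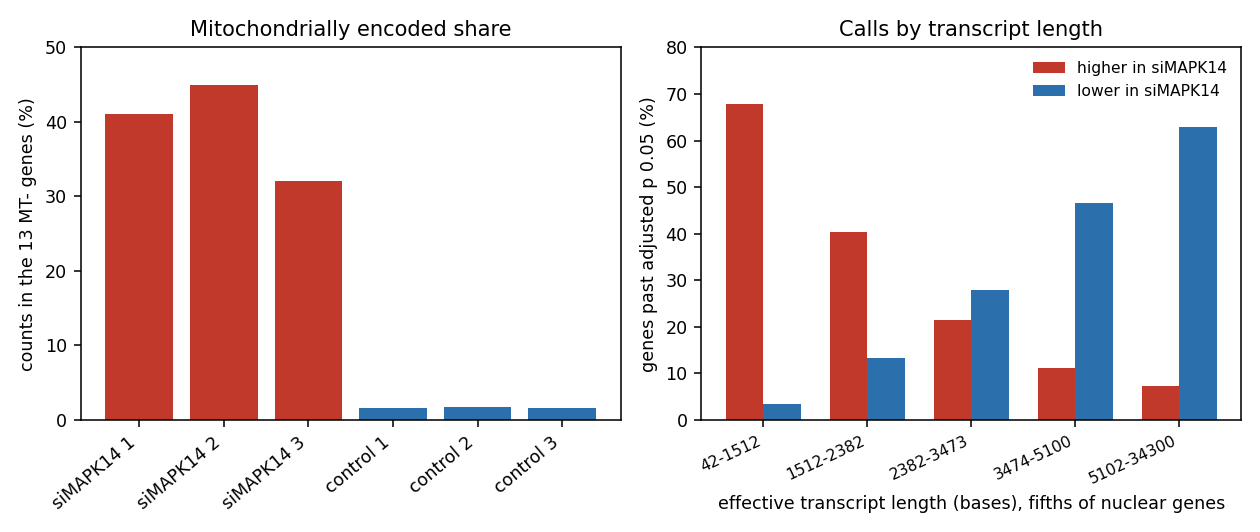
Left: percent of counts in the 13 MT- genes for each library (bars, siMAPK14 in red, control in blue). Right: percent of nuclear genes past an adjusted p of 0.05 in each of 5 bins of effective transcript length, higher in siMAPK14 in red and lower in blue. The siMAPK14 bars stand between 32.1% and 45.0%, and the higher calls drop to 7.29% in the longest bin.

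The target was lower after its siRNA, and so was its nearest relative. MAPK14 (gene ID 1432, on chromosome 6 of GRCh38.p14 between 36027808 and 36124214) stood at 29.6, 36.6 and 34.2 CPM in siMAPK14 and at 78.4, 77.0 and 74.5 CPM in the control. The groups did not overlap, and the level in siMAPK14 was 43.6% of the control (log2 fold change -1.20 ± 0.09 SE, adjusted p = 9.95e-06, edgeR). MAPK11 (gene ID 5600; chromosome 22, from 50263713 to 50270380), which encodes p38-beta, stood at 1.47, 1.12 and 1.18 CPM in siMAPK14 and at 4.98, 5.78 and 5.53 CPM in the control. Its fall was larger on the log2 scale (-2.11 ± 0.24, adjusted p = 8.11e-05), at a level where 1 count in a siMAPK14 library is worth 0.0588 to 0.102 CPM. After length adjustment the values were -0.93 for MAPK14 and -2.33 for MAPK11. MAPK12 (p38-gamma) was at 6.22, 2.94 and 6.0 CPM in siMAPK14 and 6.47, 6.95 and 5.95 CPM in the control, with overlap, and did not pass (-0.33 ± 0.26, adjusted p = 0.303). MAPK13 (p38-delta) did not pass either (-0.28 ± 0.23, adjusted p = 0.318). Under total counts, a scaling described below, all 4 were lower and past the threshold, with the median of all genes at -0.79. There MAPK14 was at -1.97, MAPK11 at -2.87, MAPK12 at -1.08 and MAPK13 at -1.05. In bulk RNA, fewer cells of a kind and less RNA per cell cannot be told apart, here or below.

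Of the 16 kinases and adaptors that activate p38, 11 fell and 1 rose; over all genes tested 30.5% were lower and 29.4% higher. MAP2K3, a direct activator of p38, was the 1 that rose, at 60.5, 51.0 and 52.9 CPM in siMAPK14 and 31.6, 33.4 and 31.8 CPM in the control (0.76 ± 0.09, adjusted p = 8.52e-05, and -0.01 under total counts, whose library sizes are described below). MAP2K6, the other kinase dedicated to p38, was at 0.0, 1.42 and 0.176 CPM in siMAPK14 and at 2.47, 1.37 and 1.52 CPM in the control. Its spread was wide and it did not pass (adjusted p = 0.0878), but it passed without siMAPK14 replicate 2 (-4.09, adjusted p = 0.00282). The falls among MAP3Ks and TAO kinases were led by MAP3K5 (ASK1, a sensor of oxidative stress; -1.31 ± 0.20), TAOK1 (-1.19 ± 0.07), MAP3K6 (-1.07 ± 0.17) and MAP3K20 (ZAK, which senses stalled ribosomes; -1.03 ± 0.11). After length adjustment these 4 were at -0.88 for MAP3K5, -0.44 for TAOK1, -0.74 for MAP3K6 and -0.54 for MAP3K20. The list median of -0.56 became -0.14 length-adjusted, where 6 fell and 3 rose. Over all genes tested under that setting 22.0% fell and 24.4% rose (46.5% in either direction).

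Kinases that p38 activates changed in both directions relative to the bulk of genes, with 3 of 7 higher and 3 lower. The shares over all genes tested were 29.4% higher and 30.5% lower. Under total counts none of the 7 was higher and 6 were lower. MKNK2, which phosphorylates the cap-binding factor eIF4E, was at 191, 245 and 199 CPM in siMAPK14 and at 126, 131 and 135 CPM in the control (0.69 ± 0.09, adjusted p = 0.000238, and -0.09 under total counts). MAPKAPK5 rose by 0.43 (-0.34 under total counts) and MAPKAPK3 fell by 0.37 on the log2 scale. MAPKAPK2, the best known p38 substrate, was at 76.0, 59.0 and 71.9 CPM in siMAPK14 and 86.5, 83.3 and 82.4 CPM in the control. The groups did not overlap and the gene passed (-0.28 ± 0.09, adjusted p = 0.027), a call that ended without control replicate 1, 2 or 3 (adjusted p = 0.0899, 0.0662 and 0.0595). Without any 1 of the control libraries, 1 of the 7 was lower.

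Of 13 MAP kinase phosphatases tested, 5 rose and 3 fell (3 rose without control replicate 1 or 2, and 1 fell without control replicate 3). Over all genes tested 29.4% rose and 30.5% fell. Under total counts 1 of the 13 rose and 8 fell. PPM1D (WIP1), a phosphatase of p38 and of p53, rose by 0.80 ± 0.13 and by 1.19 after length adjustment, but stood at 0.04 under total counts. DUSP2 was at 1.23, 1.93 and 1.41 CPM in siMAPK14 and at 0.342, 0.514 and 0.196 CPM in the control (2.09 ± 0.51, adjusted p = 0.00674). DUSP7, which acts mainly on ERK, fell by 0.45. DUSP10, a phosphatase of p38 and JNK, was at 297, 342 and 301 CPM in siMAPK14 and at 285, 301 and 295 CPM in the control, with overlap, and did not pass (0.09 ± 0.07, adjusted p = 0.276).

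**Figure D2:**
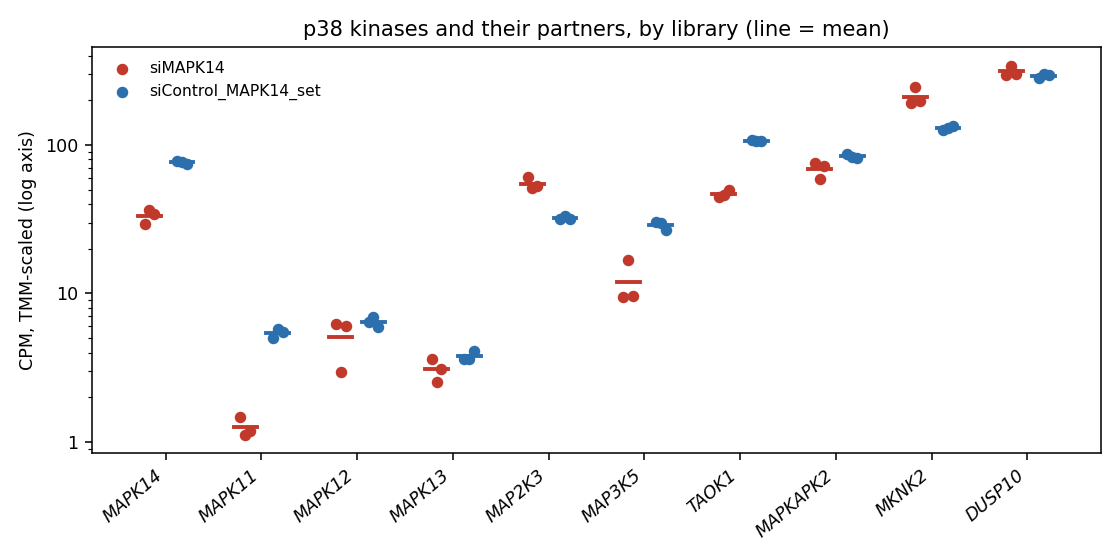
CPM on a log axis for 10 genes of the p38 pathway; points are libraries (siMAPK14 in red, control in blue) and lines are means over 3 libraries. MAPK14 and MAPK11 stand apart between the groups, MAPK12 and DUSP10 overlap, and MAP2K3 is higher in siMAPK14.

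Of the 13183 genes tested, 7899 (59.9%) were called at an adjusted p of 0.05, with 3876 higher and 4023 lower, and the median log2 fold change was -0.02. The groups' libraries did not overlap in 68.6% of the genes tested. At least 2-fold changes were called in 18.4%. Among the 13170 nuclear genes, 173 were at least 4-fold higher and 229 at least 4-fold lower, and at 16-fold the counts were 12 and 38. Leaving the 13 MT- genes out of the counts, the library sizes and the test gave 7922 calls (60.1%), 3898 higher and 4024 lower. Of the 13116 nuclear genes tested both ways, 7870 were called both times, each in the same direction, and no log2 fold change moved by more than 0.008.

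Scaling by total counts, in which the mitochondrial counts enter each library size, gave another picture. It called 9086 genes, 729 higher and 8357 lower, so higher genes were 8.02% of the calls and not 49.1%. The median of all genes moved to -0.79, and directions below are relative to the bulk of genes. With nuclear total counts and no TMM the split was 3491 higher and 4445 lower. After length adjustment 6032 of 12982 genes were called, 3174 higher and 2858 lower. Of these, 4765 were also called before the trend was removed, 4487 in the same direction and 278 in the opposite one.

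**Figure D3:**
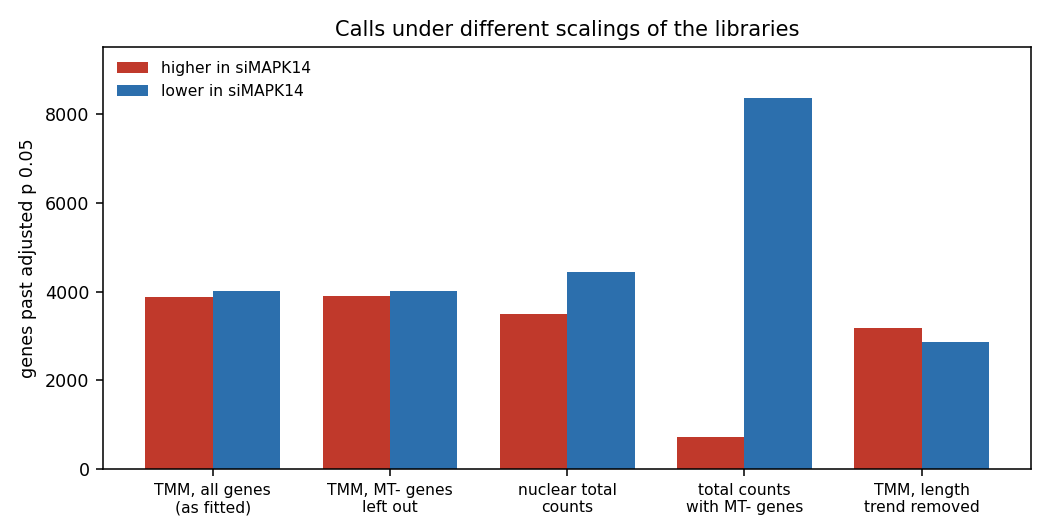
Number of genes past an adjusted p of 0.05 under 5 scalings, higher in siMAPK14 in red and lower in blue. Leaving out the MT- genes under TMM gave 3898 higher and 4024 lower, and total counts gave 729 higher and 8357 lower.

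The 15 nuclear genes with the largest rises (past the threshold, averaging 10 CPM or more, groups apart) included small GTPases, matrix proteases and stress genes. RAB13 (gene ID 5872; chromosome 1, from 153981650 to 153990708), a small GTPase of tight junction and vesicle traffic, stood at 389, 524 and 312 CPM in siMAPK14 and at 64.6, 59.2 and 60.3 CPM in the control. That was a 6.65-fold rise (2.73 ± 0.17, adjusted p = 5.72e-06), and 2.00 on the log2 scale remained after length adjustment. The interstitial collagenase MMP1 was at 35.6, 46.3 and 59.7 CPM in siMAPK14 and at 9.82, 12.5 and 14.4 CPM in the control (1.95 ± 0.20). The stromelysin MMP3 was at 142, 128 and 55.9 CPM in siMAPK14 and at 23.5, 23.0 and 20.3 CPM in the control (2.28 ± 0.30). TFPI2, a secreted inhibitor of serine proteases, varied widely among the siMAPK14 libraries, at 212, 49.6 and 145 CPM in siMAPK14 and at 25.9, 29.3 and 37.2 CPM in the control (2.15 ± 0.42, adjusted p = 0.00208).

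Among the rest, TSLP, a cytokine of epithelial alarm, rose by 2.10 ± 0.21, and PLA2G4C, a cytosolic phospholipase A2, by 2.3 ± 0.27. BEX2 rose by 2.58 and CD163L1, a scavenger receptor relative, by 2.14. The stress factor ATF3 rose by 2.00 and the extracellular chaperone CLU by 1.88. The small GTPase genes RRAD and RASD1 rose by 1.86 and 1.85. MTLN, which encodes a mitochondrial micropeptide, rose by 1.93, but by 0.66 after length adjustment. The other 14 kept a log2 fold change of at least 1.3 under that setting, and all 15 stayed higher under total counts.

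EIF3CL, the gene at the top of the order, is a near-identical copy of EIF3C, and the assignment of reads between the copies is uncertain. EIF3CL was at 46.4, 74.7 and 37.9 CPM in siMAPK14 and at 0.757, 1.71 and 3.3 CPM in the control, while EIF3C, looked up after that value was seen, was at 157, 139 and 159.7 CPM in siMAPK14 and at 231, 218 and 212 CPM in the control. The 2 copies thus moved in opposite directions (4.77 ± 0.44 and -0.54 ± 0.07). FMC1-LUC7L2 is a read-through of neighbouring genes with the same limit; it rose by 1.84, with FMC1 at 1.3 and LUC7L2 at -0.53 (both looked up after its value). The LUC7L2 call ended without control replicate 1, 2 or 3 (adjusted p = 0.11, 0.0673 and 0.0668).

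The 15 largest falls, chosen by the same rule, included collagen chains, matrix proteins and cell surface proteins. COL6A3 (gene ID 1293; chromosome 2, from 237324018 to 237414164), a chain of collagen VI, stood at 0.9, 2.44 and 1.59 CPM in siMAPK14 and at 29.4, 27.7 and 25.7 CPM in the control, a 17.2-fold fall. The matrix protein gene MXRA5 was at 4.75, 5.18 and 18.5 CPM in siMAPK14 and at 135, 125 and 117 CPM in the control, with siMAPK14 replicate 3 closest to the control. The same replicate was the closest for APLN (the peptide apelin), at 1.72, 1.12 and 6.94 CPM in siMAPK14 against 40.5, 35.5 and 32.5 CPM in the control. This library also had the lowest mitochondrial share of the 3, and whether that bears on these levels was not tested.

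PODXL, a sialomucin, was at 80.7, 53.5 and 119.5 CPM in siMAPK14 and at 659, 743 and 853 CPM in the control (8.80-fold lower). ENPP1, which makes pyrophosphate from extracellular ATP, was at 31.1, 24.4 and 34.6 CPM in siMAPK14 and 289, 261 and 249.8 CPM in the control (8.79-fold lower). SULF1, which edits heparan sulphate, fell by 2.68 ± 0.14, ROS1, an orphan receptor tyrosine kinase, by 2.67 ± 0.31, and the scavenger receptor gene SSC5D by 2.62 ± 0.24. PCDHGA12 fell by 2.60 ± 0.12, but the protocadherin gamma genes share their last exons, so its reads cannot be assigned with certainty. After length adjustment the 15 genes lay between -3.45 (COL6A3) and -1.97 (COL5A1, a chain of collagen V), and all stayed past the threshold.

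**Figure D4:**
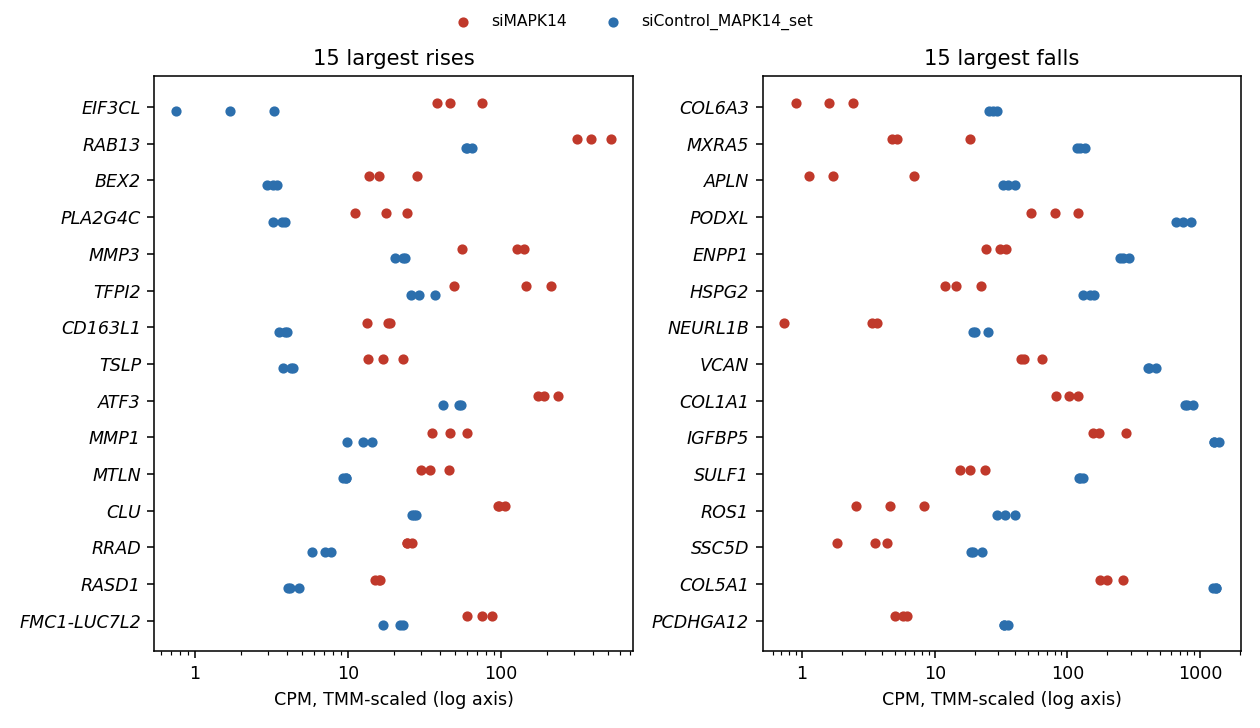
CPM on a log axis for the 15 nuclear genes with the largest rises (left) and falls (right); points are libraries, siMAPK14 in red above control in blue. The groups of each gene do not overlap, by the rule that chose them; RAB13 reaches 524 CPM in siMAPK14 and COL6A3 drops to 0.9 CPM.

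All 13 MT- genes were higher, with a median log2 fold change of 5.48 and 4.67 under total counts, but they were not raised evenly. MT-COX1, a core subunit of cytochrome oxidase, made up 21.6% ± 0.244 of the mitochondrial counts in siMAPK14 and 37.9% ± 1.04 in the control (SD, n = 3 each). MT-COX2 made up 22.3% ± 0.335 in siMAPK14 and 13.3% ± 0.699 in the control, and MT-ATP6 9.35% ± 0.407 in siMAPK14 and 5.39% ± 0.297 in the control. MT-ND5 made up 2.58% ± 0.115 in siMAPK14 and 4.3% ± 0.195 in the control. The libraries of the groups did not overlap in any of these 4 shares. MT-COX1 stood at 117478, 142644 and 80360.2 CPM in siMAPK14 and at 4828, 4751 and 4495 CPM in the control (4.60 ± 0.23), the smallest rise of the 13, whereas MT-ATP6 had the largest (6.20 ± 0.23). MT-ND6, the 1 messenger encoded on the opposite strand of the mitochondrial genome, was at 128, 209.9 and 116 CPM in siMAPK14 and 5.47, 5.29 and 6.88 CPM in the control (4.68 ± 0.25).

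Nuclear genes that handle mitochondrial RNA moved by far less. Of 28 genes of mitochondrial RNA processing and stability 14 rose and none fell, with a median of 0.28 (0.36 length-adjusted, where 17 rose and none fell, and -0.50 under total counts). Without siMAPK14 replicate 1, 2 of them fell, and without siMAPK14 replicate 3, 1 fell. SUPV3L1, the helicase of the mitochondrial RNA degradation complex, was at 49.5, 56.1 and 50 CPM in siMAPK14 and at 25.0, 25.6 and 24.4 CPM in the control (1.05 ± 0.08, adjusted p = 1.2e-05). SLIRP, which binds and stabilises mitochondrial messengers, rose by 1.81 ± 0.14 and by 0.45 after length adjustment. Of 24 genes of mitochondrial DNA replication and transcription 10 rose and 2 fell, among them the transcription factor TFB2M (1.08 ± 0.10) and the pyrimidine nucleotide carrier SLC25A33 (1.16 ± 0.12, and 1.41 after length adjustment). The list median of 0.23 was -0.55 under total counts. Without control replicate 2, 6 rose, and without any 1 of the control libraries 1 fell. Of the 78 mitochondrial ribosomal proteins, 73 rose and none fell, with a median of 0.98 (0.20 under total counts). Removal of the length trend left 49 higher and 2 lower (median 0.35). Cytosolic ribosomal proteins moved likewise, with 81 of 82 higher and none lower and a median of 1.15 (0.36 under total counts). After length adjustment 50 of these were higher and 4 lower (median 0.22). The shares over all genes tested were 29.4% higher and 30.5% lower (24.4% and 22.0% after length adjustment).

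Of 45 translation factors 32 rose and 6 fell, with a median of 0.56 (0.28 length-adjusted, where 27 rose and 4 fell, and -0.23 under total counts). EIF3M, a subunit of initiation factor 3, was at 278, 285 and 259 CPM in siMAPK14 and at 113, 114 and 116 CPM in the control (1.26 ± 0.06). EIF1, which guards start codon choice, was at 1521, 1458 and 1317 CPM in siMAPK14 and at 579, 621 and 625 CPM in the control (1.23 ± 0.07). After length adjustment EIF3M was at 1.68 and EIF1 at 1.05. Of 37 proteasome subunits 34 rose and 2 fell, with a median of 0.68 (-0.09 under total counts), but after length adjustment 13 rose and 3 fell (median 0.11). Without control replicate 1 or 3, 1 proteasome gene fell. Among SRSF splicing factors 7 of 11 rose and none fell, led by SRSF8 (1.08 ± 0.09), with a median of 0.29 (-0.48 under total counts); 2 fell without siMAPK14 replicate 2.

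Targets of NRF2, the transcription factor of the antioxidant response, rose in 19 of 24 cases and fell in 2 (1 without siMAPK14 replicate 1 or control replicate 2 or 3). The median was 0.60, 0.46 length-adjusted, where 17 rose and 1 fell, and -0.18 under total counts. FTH1, the heavy chain of the iron store ferritin, was at 10409, 10833 and 8812 CPM in siMAPK14 and at 3052, 3263 and 3195 CPM in the control (1.66 ± 0.10). SQSTM1, an autophagy receptor that also frees NRF2 from its inhibitor, was at 4357, 4172 and 4026 CPM in siMAPK14 and at 1504, 1599.9 and 1651 CPM in the control (1.4 ± 0.08, and 1.38 after length adjustment). Both genes stayed higher under total counts (0.87 and 0.62). Core autophagy genes rose in 18 of 34 cases and fell in 5, with a median of 0.25 (0.30 length-adjusted, where 17 rose and 2 fell, and -0.52 under total counts). MAP1LC3B, whose product coats autophagosomes, was at 644, 619 and 609 CPM in siMAPK14 and at 273, 284 and 298 CPM in the control (1.13 ± 0.06), and GABARAP of the same family rose by 1.11 ± 0.08.

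Metallothioneins, short metal-binding proteins, gave a result that turned with the treatment of length. Of 8 tested 4 rose and 2 fell, against 29.4% higher and 30.5% lower over all genes tested. After length adjustment 1 rose and 2 fell, and the list median went from 0.78 to -0.18. MT2A was at 779, 754 and 750.5 CPM in siMAPK14 and at 355, 410.1 and 415 CPM in the control (0.95 ± 0.07), but stood at -0.36 (adjusted p = 0.00675) after length adjustment. MT1E and MT1X rose by 1.35 and 1.29, and were at 0.04 and -0.0026 under that setting, neither past the threshold. Histone genes were another short class: 15 of 22 rose and 1 fell (median 0.87, and 0.09 under total counts; 2 fell without any 1 of the siMAPK14 libraries), and after length adjustment 7 rose and 3 fell. H2BC21 rose by 1.77 ± 0.21 and by 1.54 after length adjustment. Histone genes have near-identical copies, so single members are uncertain.

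Most genes of the extracellular matrix fell. Of 30 collagen genes 23 fell and 2 rose, with a median of -1.84, and the same counts with a median of -1.39 were found after length adjustment. COL1A2, a chain of collagen I, was at 2318, 2491 and 2769 CPM in siMAPK14 and at 10841, 9685 and 9209 CPM in the control (-1.97 ± 0.11). COL3A1, of collagen III, was at 25.6, 18.6 and 34.5 CPM in siMAPK14 and at 146, 124 and 109.6 CPM in the control (-2.24 ± 0.20). Laminins, nidogens and matrix glycoproteins fell in 27 of 36 cases, with 1 higher (25 and 1 after length adjustment), with THBS1 (thrombospondin 1) at -2.50 ± 0.14, elastin (ELN) at -2.38 ± 0.23 and fibrillin 1 (FBN1) at -2.27 ± 0.18. The 1 that rose was TNXB, at 1.06, 1.62 and 5.0 CPM in siMAPK14 and at 0.366, 0.367 and 0.514 CPM in the control (2.65 ± 0.62); TNXB has a near-identical partial copy, so its reads are uncertain. Of 21 proteoglycan and hyaluronan genes 15 fell and 1 rose (2 rose without siMAPK14 replicate 1). SDC3 (syndecan 3) fell by 2.48 ± 0.10, and the rise was in the brain proteoglycan BCAN, at 6.79, 2.23 and 3.59 CPM in siMAPK14 and 0.562, 0.734 and 0.71 CPM in the control (2.65 ± 0.45).

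Enzymes that build and trim the matrix were also mostly lower. Of 21 genes of collagen modification 17 fell and none rose, and after length adjustment 18 fell and 1 rose (median -0.86 and -0.97). LOX, which cross-links collagen, was at 312, 311 and 394 CPM in siMAPK14 and at 1014, 1029.6 and 1074 CPM in the control (-1.61 ± 0.10), and its relatives LOXL2 and LOXL3 fell by 1.60 and 1.66. The prolyl hydroxylase gene P4HA1 fell by 1.31 ± 0.08. Among 33 matrix proteases and inhibitors 21 fell and 5 rose. ADAMTS2, which trims procollagen, fell by 2.16 ± 0.07 and the inhibitor TIMP3 by 2.15 ± 0.13, so MMP1 and MMP3 stood against the direction of most of their list.

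Adhesion genes moved the same way in most cases. Of 19 integrins 15 fell and none rose (13 and none after length adjustment, median -1.22 and -0.90). ITGA3, a laminin receptor subunit, was at 260.0, 264 and 338 CPM in siMAPK14 and at 969.6, 952 and 912 CPM in the control (-1.72 ± 0.10), and ITGA6, another, fell by 1.90 ± 0.13. Of 23 focal adhesion adaptors 17 fell and 2 rose (1 rose without control replicate 1, 2 or 3), with TLN1 (talin 1) at -1.61 ± 0.11. After length adjustment 12 fell and 2 rose. Of 24 genes of contractile actin 10 rose and 9 fell, against 29.4% higher and 30.5% lower over all genes tested. After length adjustment 4 rose and 11 fell, against 24.4% higher and 22.0% lower over all genes tested. The long myosin heavy chain gene MYH9 fell (-1.48 ± 0.12, and -0.90 after length adjustment), whereas TAGLN (transgelin) was at 268, 302 and 237 CPM in siMAPK14 and at 125, 116 and 114 CPM in the control (1.19 ± 0.09, and 1.42 after length adjustment).

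Guidance molecules, which steer axons and migrating cells, fell in most cases. Of 25 semaphorins, plexins and neuropilins 17 fell and none rose (16 and none after length adjustment), with a median of -1.31 and -0.91. Without siMAPK14 replicate 3, 1 rose. SEMA5A was at 9.41, 6.09 and 11.7 CPM in siMAPK14 and at 43.8, 37.9 and 41.6 CPM in the control (-2.15 ± 0.19), and the receptor gene PLXNA2 at 9.74, 7.31 and 7.64 CPM in siMAPK14 and 37.6, 40.6 and 41.6 CPM in the control (-2.28 ± 0.13). Of 23 ephrin, netrin and slit genes 14 fell and 2 rose (10 and none after length adjustment). The netrin receptor UNC5B was at 0.0818, 0.0 and 0.294 CPM in siMAPK14 and at 2.3, 2.25 and 2.35 CPM in the control (adjusted p = 0.000535). Of 23 cadherins and protocadherins 17 fell and none rose, and 12 fell and 2 rose after length adjustment; as fitted, 1 rose without siMAPK14 replicate 1 or 2 or any 1 of the control libraries. FAT1, a giant cadherin, was at 19.7, 13.7 and 14.9 CPM in siMAPK14 and at 73.0, 64.8 and 57.9 CPM in the control (-2.02 ± 0.14).

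**Figure D5:**
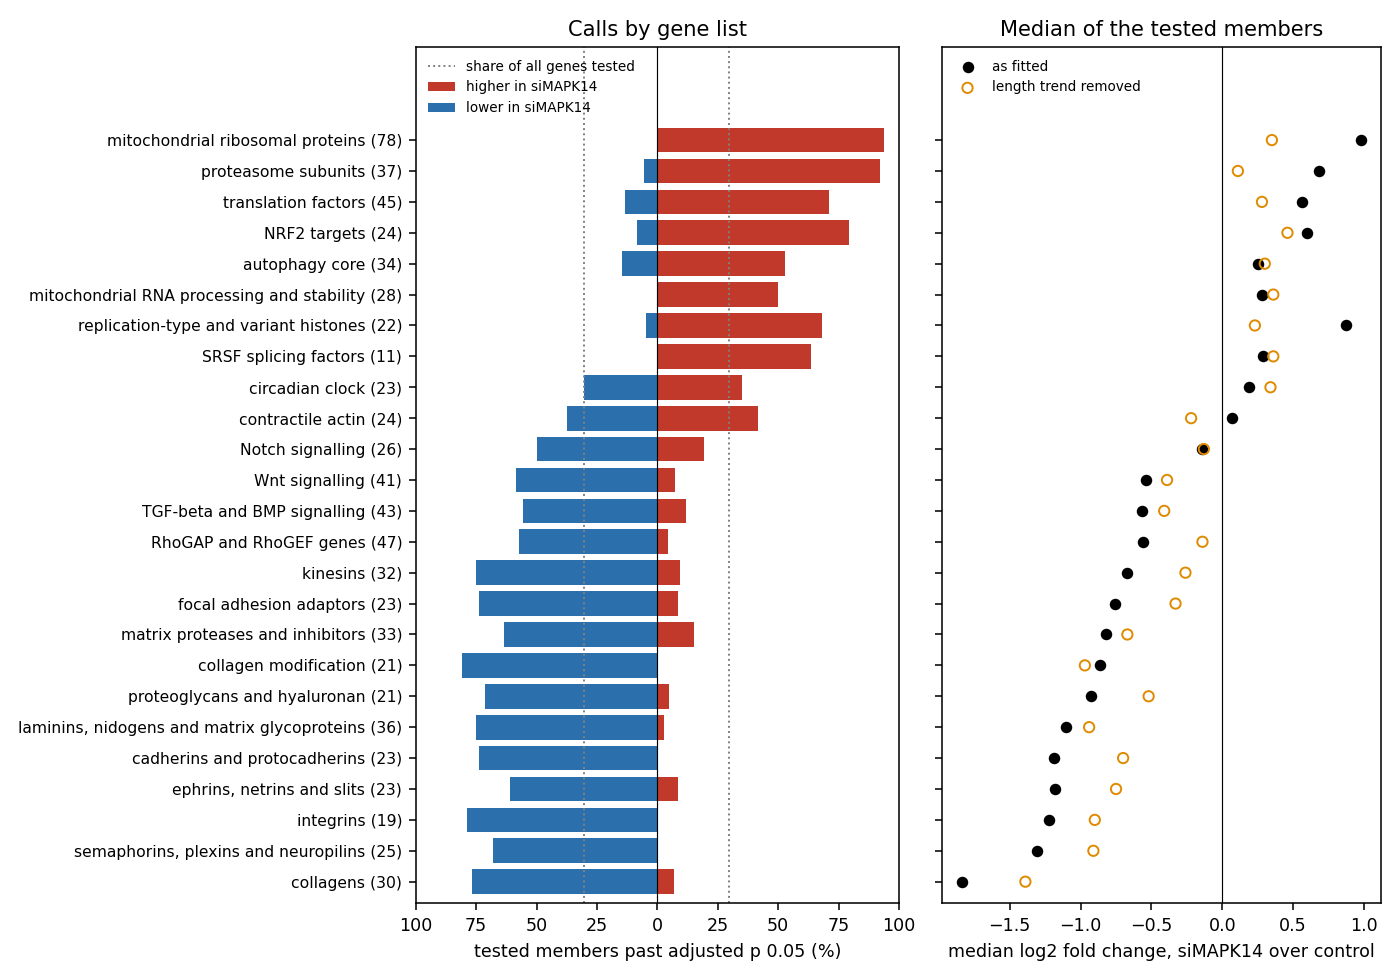
Left: percent of the tested members (number in brackets) of 25 gene lists past an adjusted p of 0.05, higher in siMAPK14 in red and lower in blue; dotted lines mark the shares over all genes tested, 29.4% and 30.5%. Right: median log2 fold change as fitted (black) and after length adjustment (open orange). Collagens, semaphorins and integrins stay low under both, whereas the proteasome median drops to 0.11; under total counts the medians of proteasome, translation, NRF2, autophagy, mitochondrial RNA, splicing, clock and contractile actin lists lie below 0.

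In signalling beyond p38, 24 of 43 TGF-beta and BMP genes fell and 5 rose (16 and 7 after length adjustment). Over all genes tested 30.5% fell and 29.4% rose (22.0% and 24.4% after length adjustment). The receptor TGFBR1 was at 56.8, 38.1 and 62.1 CPM in siMAPK14 and at 160.4, 156 and 158 CPM in the control (-1.58 ± 0.15), and the co-receptor ENG (endoglin) at 10.1, 7.51 and 12.8 CPM in siMAPK14 and 35.2, 37.1 and 34.4 CPM in the control (-1.78 ± 0.16). Of 41 Wnt genes 24 fell and 3 rose (18 and 6). The Wnt receptor LRP5 fell by 2.22 ± 0.20, and so did secreted inhibitors: DKK1 was at 33.7, 46.9 and 30.8 CPM in siMAPK14 and at 158, 142 and 128 CPM in the control (-1.96 ± 0.15, and -2.35 after length adjustment), and SFRP1 fell by 1.60 ± 0.25.

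In the Notch pathway 13 of 26 genes fell and 5 rose (9 and 3 of 25 after length adjustment). The shares over all genes tested were 30.5% lower and 29.4% higher (22.0% and 24.4% after length adjustment). The list median was -0.14 (-0.13 length-adjusted), and the median of all genes was -0.02 (0.02 length-adjusted). The receptor gene NOTCH1 was at 13.7, 12.7 and 12.2 CPM in siMAPK14 and at 43.7, 47.1 and 44.4 CPM in the control (-1.81 ± 0.09). LFNG, which adds sugars to Notch receptors, was at 0.818, 0.914 and 2.0 CPM in siMAPK14 and at 11.6, 9.3 and 8.52 CPM in the control (-2.90 ± 0.32). The transcriptional repressor HES1, a common readout of Notch, moved the other way, at 16.4, 24.6 and 22.8 CPM in siMAPK14 and at 6.93, 7.15 and 6.63 CPM in the control (1.62 ± 0.16, and 1.13 after length adjustment). NEURL1B, a ligase that helps Notch ligands, was among the 15 largest falls (-3.05 ± 0.36).

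Of 20 genes that handle extracellular nucleotides 12 fell and none rose (7 and none of 17 after length adjustment). The shares over all genes tested were 30.5% lower and 29.4% higher (22.0% and 24.4% after length adjustment). NT5E (CD73), which makes adenosine, was at 289, 276 and 308 CPM in siMAPK14 and at 794, 803 and 858 CPM in the control (-1.49 ± 0.07), and the ATP receptor P2RX7 fell by 1.5 ± 0.26. Growth factor genes of the PDGF, VEGF and FGF systems were lower in 12 of 24 cases and higher in 3 (9 and 6 after length adjustment), with PDGFRB at -1.65 ± 0.28 and FGF5 at -1.30 ± 0.13. Feedback genes of ERK signalling were lower in 11 of 22 cases and higher in 4 (9 and 2 of 21 after length adjustment). The feedback inhibitor SPRY4 fell by 1.39 ± 0.15 and SPRED1 by 1.18 ± 0.08. After length adjustment SPRY4 was at -0.99 and SPRED1 at -0.60.

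Of 21 NF-kB factors and regulators 5 rose and 7 fell, near the shares over all genes tested of 29.4% and 30.5% (3 rose without siMAPK14 replicate 1 or 3 or control replicate 1, and 4 fell without control replicate 3). TNFAIP3 (A20), an inhibitor of NF-kB, was at 48.5, 50.8 and 50.7 CPM in siMAPK14 and at 105, 131 and 138 CPM in the control (-1.32 ± 0.10), and NFKBIZ fell by 1.33 ± 0.20, whereas the inhibitor NFKBIB rose by 1.00 ± 0.10. Among MHC class I presentation genes 7 of 17 rose and 7 fell, and after length adjustment 1 rose and 9 fell. The immunoproteasome subunit PSMB8 was at 0.98 ± 0.09 as fitted and at 0.27 after length adjustment, the peptide transporter TAP2 at -0.81 ± 0.09 and at -0.37, and its partner TAPBP at -0.83 ± 0.11 and at -0.72. Of 15 complement genes 3 rose and 5 fell. The complement component C3 was at 8.18, 5.89 and 9.99 CPM in siMAPK14 and at 27.4, 25.3 and 22.0 CPM in the control (-1.61 ± 0.18).

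Of 25 p53 targets 8 rose and 4 fell, against 29.4% higher and 30.5% lower over all genes tested, and of 19 genes of the G1 switch (D cyclins, their kinases and inhibitors, RB and E2F proteins) 5 rose and 9 fell. GADD45A, a stress gene of growth arrest, was at 787, 804 and 703 CPM in siMAPK14 and at 237, 265 and 235 CPM in the control (1.64 ± 0.08, and 1.01 after length adjustment). Among the other p53 targets of largest change, POLH fell by 1.64 ± 0.18 and TP53INP1 by 0.98 ± 0.19, whereas DDB2 rose by 0.98 ± 0.17. After length adjustment POLH was at -1.02, TP53INP1 at -0.51 and DDB2 at 0.55. CDKN1A, the p21 inhibitor of cyclin-dependent kinases, was at 108, 93.4 and 99.8 CPM in siMAPK14 and at 46.3, 52.1 and 57.0 CPM in the control (0.96 ± 0.09), and CDK6 fell by 1.5 ± 0.07 (-0.76 after length adjustment). CCND2 (cyclin D2), chosen after its values were seen, was at 1.31, 0.914 and 0.647 CPM in siMAPK14 and at 0.0, 0.0245 and 0.0 CPM in the control. Of 32 kinesins, motors of the spindle and of transport, 24 fell and 3 rose (14 and 5 after length adjustment), with KIF20A, needed for cytokinesis, at 23.0, 24.3 and 24.1 CPM in siMAPK14 and at 97.4, 79.1 and 77.1 CPM in the control (-1.83 ± 0.11). Of 36 genes of the replication fork 15 fell and 7 rose (4 rose without control replicate 2 or 3), and POLE, the leading strand polymerase, fell by 1.58 ± 0.10. Of 17 genes of the BCL2 family 7 rose and 3 fell (4 rose without control replicate 1 or 2, and 5 fell without siMAPK14 replicate 3), and after length adjustment 3 rose and 5 fell. BAD, which promotes cell death, rose by 0.94 ± 0.12 (0.10 after length adjustment). The anti-apoptotic gene BCL2L1 was at 61.4, 58.7 and 55.3 CPM in siMAPK14 and at 114, 116 and 111 CPM in the control (-0.96 ± 0.07, and -1.08 after length adjustment).

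Of 23 genes of the circadian clock 8 rose and 7 fell, close to the shares over all genes tested (29.4% and 30.5%), and after length adjustment 11 rose and 1 fell of 22; 3 fell without control replicate 2 and 4 without control replicate 1 or 3. HLF (gene ID 3131; chromosome 17, from 55264960 to 55325187), a PAR bZIP transcription factor driven by the clock, was close to the floor in the control, at 5.07, 4.26 and 2.18 CPM in siMAPK14 and at 0.147, 0.122 and 0.196 CPM in the control (4.58 ± 0.52, adjusted p = 8.09e-05). DBP, of the same family, was at 6.14, 9.85 and 6.76 CPM in siMAPK14 and at 2.37, 2.33 and 2.25 CPM in the control (1.70 ± 0.24). CIART (gene ID 148523; chromosome 1, from 150282554 to 150287093), a clock repressor, was at 22.4, 21.6 and 20.5 CPM in siMAPK14 and at 8.35, 8.71 and 7.73 CPM in the control (1.38 ± 0.12), and the repressor CRY1 rose by 1.01 ± 0.10. The log2 fold changes of all 4 stayed above 0 under total counts and after length adjustment. RORB, a nuclear receptor of the clock list below the level set for named genes and chosen after its values were seen, had no count in any siMAPK14 library and was at 0.464, 0.563 and 0.318 CPM in the control, at least 5.84-fold lower in siMAPK14 against a floor of 3 counts over the group.

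Promoters were searched on both strands in the RefSeq windows of GRCh38.p14, from 250 bases before to 50 bases after each gene's start. The motifs were a loose form of the AP-1 motif, TGANTCA (N is any base), the cyclic AMP response element TGACGTCA, the E-box CACGTG and the TEAD motif GGAATG. Of the promoters of genes tested here, 4.67% held the AP-1 motif, 3.22% the response element, 10.1% the E-box and 10.9% the TEAD motif. Windows were found for 9 of the 15 genes with the largest rises and 11 of the 15 with the largest falls. The window of RAB13 (chromosome 1, from 153986290 to 153986589, minus strand) lay inside the gene span given above, so the outer start of that span was not searched. The AP-1 motif was in 1 of the 9 and none of the 11, the response element in none of either, the E-box in 1 of the 9 and none of the 11, and the TEAD motif in 1 of each. Of the 4 clock genes named above (HLF, DBP, CIART and CRY1, the largest changes among called members averaging 1 CPM or more), 1 held the E-box, 1 the response element, 2 the TEAD motif and none the AP-1 motif. CIART held the E-box 3 times and the TEAD motif once, and HLF held the TEAD motif once and the response element once, 7 bases before its start. The 3 windows below are shown because they belong to genes that rose, TFPI2 to the 15 largest rises and HLF and CIART to the clock genes, and hold the motif in question; the capitals mark it, and all are written 5′ to 3′ on the strand of the gene. A match is of letters alone and says nothing of binding in these cells. The TFPI2 match, TGAATCA, has A at the centre of the loose AP-1 form. The stricter AP-1 form, with C or G at the centre, was not counted apart.
TFPI2 (chr7:93890704-93891003, minus strand, AP-1 motif): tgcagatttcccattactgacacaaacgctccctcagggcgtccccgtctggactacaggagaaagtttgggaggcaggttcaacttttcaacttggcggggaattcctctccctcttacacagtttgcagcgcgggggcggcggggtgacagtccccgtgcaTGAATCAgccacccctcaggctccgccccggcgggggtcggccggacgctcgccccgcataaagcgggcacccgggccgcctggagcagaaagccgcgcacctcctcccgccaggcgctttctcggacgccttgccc
HLF (chr17:55264710-55265009, plus strand, cyclic AMP response element): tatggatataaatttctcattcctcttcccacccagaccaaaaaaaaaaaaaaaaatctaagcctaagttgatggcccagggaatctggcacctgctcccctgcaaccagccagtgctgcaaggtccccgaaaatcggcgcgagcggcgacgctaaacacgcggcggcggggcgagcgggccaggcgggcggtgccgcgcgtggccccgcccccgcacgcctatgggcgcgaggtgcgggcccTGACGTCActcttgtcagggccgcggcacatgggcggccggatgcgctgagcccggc
CIART (chr1:150282304-150282603, plus strand, E-box): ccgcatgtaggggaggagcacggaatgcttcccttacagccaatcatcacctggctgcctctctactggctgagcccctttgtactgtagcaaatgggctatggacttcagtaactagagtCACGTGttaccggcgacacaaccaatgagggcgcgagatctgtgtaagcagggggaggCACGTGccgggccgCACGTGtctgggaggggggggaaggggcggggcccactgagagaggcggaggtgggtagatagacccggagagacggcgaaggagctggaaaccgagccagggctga

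The label of Müller glia was checked against 18 marker genes in the table. VIM (vimentin) was at 5233, 5592 and 4765 CPM in siMAPK14 and at 4601, 4501 and 4593 CPM in the control, and did not pass (adjusted p = 0.0864), though it did without siMAPK14 replicate 3 (0.24, adjusted p = 0.00733). The glutamine synthetase gene GLUL was at 165, 163 and 155 CPM in siMAPK14 and at 191, 183 and 189 CPM in the control (-0.22, and 0.38 after length adjustment), and the glutamate transporter gene SLC1A3 at 19.1, 17.4 and 28.6 CPM in siMAPK14 and 46.3, 42.9 and 39.1 CPM in the control (-0.96 ± 0.17). The genes of the visual cycle protein RLBP1 and the potassium channel KCNJ10, both defining markers in the retina, were at or near 0, at most 0.823 CPM for RLBP1 and at most 0.0733 CPM for KCNJ10 in any library. Of the 16 markers tested 6 rose and 7 fell, against 29.4% higher and 30.5% lower over all genes tested. The lowest was TIMP3, at -2.15 ± 0.13. APOE, which carries lipids between cells, was at 1.96, 4.37 and 2.53 CPM in siMAPK14 and at 0.659, 0.612 and 0.514 CPM in the control (2.29 ± 0.43), and SPP1 (osteopontin) rose by 1.65 ± 0.12.

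Markers of pericytes and fibroblasts include collagens described above: 10 of 13 fell and 1 rose (2 rose without siMAPK14 replicate 3), and their summed level was 2983 to 3598 CPM in siMAPK14 and 10976 to 12847 CPM in the control. Most of that sum was COL1A2, at 2318, 2491 and 2769 CPM in siMAPK14 and at 10841, 9685 and 9209 CPM in the control. After length adjustment 8 of the 13 fell and 3 rose. CSPG4 (NG2), a marker of pericytes, was at 21.3, 25.3 and 43.9 CPM in siMAPK14 and at 138, 140.1 and 133 CPM in the control (-2.16 ± 0.22). Of 6 endothelial markers tested 1 rose, 1 fell and 4 did not pass, and without siMAPK14 replicate 3, 4 fell. TEK, the angiopoietin receptor of endothelium (gene ID 7010; chromosome 9, from 27109225 to 27230174), had no count in any siMAPK14 library and 102, 87 and 92 counts in the control libraries. Against a floor of 3 counts over the group it was at least 29.8-fold lower in siMAPK14. The marker that rose was ESAM, an adhesion molecule looked up after the count, at 1.06, 0.406 and 0.823 CPM in siMAPK14 and at 0.195, 0.318 and 0.171 CPM in the control (1.75 ± 0.59, adjusted p = 0.0287), a call that ended without siMAPK14 replicate 1 (adjusted p = 0.0595) or control replicate 1, 2 or 3 (0.133, 0.076 and 0.138). ERG, the endothelial transcription factor with the highest mean of the list, was at 0.11 ± 0.26 (adjusted p = 0.734). The summed level of all 10 endothelial markers was 6.6 to 8.51 CPM in siMAPK14 and 11.8 to 12.5 CPM in the control. Of photoreceptor markers 2 of 13 were tested, with PDE6B and PDE6H at 0 counts in all 6 libraries, and of markers of microglia and macrophages C1QA and C1QB were at 0 in all 6. Of 4 tested members of that list 2 rose and 2 did not pass, against 29.4% higher and 30.5% lower over all genes tested. CD14, a co-receptor for bacterial lipids, was at 2.62, 2.34 and 3.23 CPM in siMAPK14 and at 0.464, 0.563 and 0.636 CPM in the control (2.3 ± 0.38). CD68, with the highest mean of the list, was at 38.9, 41.3 and 44.2 CPM in siMAPK14 and at 41.2, 40.1 and 39.3 CPM in the control. It did not pass (0.05 ± 0.08, adjusted p = 0.634). The summed level of that list was 47.8 to 55.4 CPM in siMAPK14 and 46.8 to 49.0 CPM in the control. The part of other cell types in these results was not tested.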

How the data were processed

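Bulk poly(A) RNA of 6 libraries was compared, 3 of siMAPK14 and 3 of its control. The authors deposited, for each gene and library, an expected count as RSEM estimates it and an FPKM value, per the file headers. The submitters' processing notes name GRCh38.p14, RSEM 1.3.1, Bowtie2 2.3.4.3 and, in addition, DESeq2 1.4.5, without their roles. The 2 deposited tables, of this experiment and of the MAPK8 and MAPK9 experiment, have 30 other per-library columns, which were not used. Expected counts were rounded to whole numbers. The filter was filterByExpr with min.count 10 and min.total.count 15. TMM set the library scaling, and the test was the robust quasi-likelihood F-test of edgeR 4.0.16 in R 4.3.3, with group as the only term. All p-values of single genes in the text are from this test, adjusted by Benjamini-Hochberg over all genes tested, with a threshold of 0.05, and SE is derived from the test statistic. The deposited FPKM values served only to recover each gene's effective length (13494 genes), from which a lowess trend (span 0.3) of counts on length was removed in each library as an alternative. The other alternatives were MT- genes left out, 2 scalings without TMM, RLE, 2 filters, DESeq2 1.42.0, limma-voom (limma 3.58.1), a replicate block, thinning to 1 depth and each library left out. The scripts were tested on simulated data with known changes. Depth differs between the groups, and a CPM of 3 counts is 0.176 to 0.305 in siMAPK14 and 0.0732 to 0.0734 in the control; floors cover counting error only. Symbols and positions come from RefSeq, which matched 17591 of 17598 gene IDs. Genes are named by rule: the 15 highest and 15 lowest nuclear fold changes among called genes averaging 10 CPM or more whose groups did not overlap, the MT- genes, the p38 lists, and in each list up to 4 called members of largest change, averaging 1 CPM or more. From marker lists, the member with the highest mean and members at 0 in all 6 libraries are added, and EIF3C, FMC1, LUC7L2, RORB, CCND2, ESAM, RLBP1, KCNJ10, GLUL, SLC1A3 and VIM were added after their values were seen. Members and lists were chosen with earlier results of these data known. List counts and medians carry no test of the list.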

Additional observations from a re-analysis of the deposited data

How the results depend on the processing

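MAPK14 and MAPK11 stayed lower and past the threshold under all 17 alternatives; without 1 library their log2 fold changes ranged from -1.27 to -1.13 and from -2.24 to -2.06. The number of genes called ranged from 6410 to 8612 without 1 library, with 3141 to 4115 higher and 3269 to 4497 lower. Total counts without TMM gave 729 higher and 8357 lower. Under total counts the sign turned for MAP2K3 (-0.01), MAPKAPK5 (-0.34), MKNK2 (-0.09), DUSP10 (-0.69), VIM (-0.60) and ERG (-0.68), where the median of all genes itself moved to -0.79. After length adjustment it turned for MAPK13 (0.23), DUSP10 (-0.04), MT1X (-0.0026), MT2A (-0.36), VIM (-0.06) and GLUL (0.38). ERG, not past the threshold as fitted, was at -0.0034 with limma-voom and between -0.06 and 0.37 without 1 library. The cause of these turns was not tested.

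Replicate numbers are shared by the groups, but same-numbered libraries deviated together only weakly (r = 0.0162, 0.0130 and 0.0295 across genes), so the numbers were not taken as pairs, although each library correlated best with its own number. With the replicate block 7474 genes were called, 3512 higher and 3962 lower, MAPK14 stood at -1.20 and MAPK11 at -2.11, and among the named genes the TFPI2 call (1.95, adjusted p = 0.117, edgeR) and the ESAM call (1.73, adjusted p = 0.124) ended. The siMAPK14 libraries have less depth than the control libraries, so low genes such as MAPK11 and UNC5B are the least certain; thinned to 1 depth, 7570 of 12624 genes were called.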
